A study of Homo sapiens with 6 samples.

Results

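The neutrophil-attracting CXC chemokines and their receptors were examined in HCCLM3, a human hepatocellular carcinoma cell line, with and without overexpressed *PON1*. The group held 8 of the 20381 genes in the count table, the 6 ligands *CXCL1*, *CXCL2*, *CXCL3*, *CXCL5*, *CXCL6* and *CXCL8* and the 2 receptors *CXCR1* and *CXCR2*, each found by its symbol. The family was selected on the lower *CXCL3* and *CXCL5* of PON1-OE in these same libraries, so the difference between the groups is described here for all 8 genes and not tested. PON1-OE cells had been infected with a lentivirus carrying *PON1* and form a stable line. NC cells received an empty vector lentivirus according to the series' design text, and the study's methods describe puromycin selection of both as stable lines. The design text also gives 15% serum and lysis 24 h after transfection for both, whereas the study's methods give a lower serum share and no such time, and which held for these libraries was not settled. There were 3 poly(A) RNA-seq libraries per group, and whether they came from separate infections or cultures is not stated in the sources used here, so p-values and SDs describe the spread between libraries.

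ELR CXC chemokines are small secreted proteins named for the glutamate, leucine and arginine that stand just before their CXC cysteine motif. They bind CXCR2, and CXCL6 and CXCL8 bind CXCR1 as well. Both receptors are found mainly on neutrophils, which follow the ligands into inflamed tissue, and in liver cancer the ligands are known as tumor-derived signals for neutrophils and vessels. Their genes are induced by IL-1, TNF and IL-17 through NF-κB, together with factors such as AP-1 and C/EBP, and several of the mRNAs are short-lived because they hold AU-rich elements.

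The 3 codons of the ELR motif show how the ligands fall into types, and they also bear on how well reads can be assigned. In the coding sequences of GENCODE v29, 45 bases around the motif are given 5′ to 3′, with the ELR codons in capitals.
CXCL1: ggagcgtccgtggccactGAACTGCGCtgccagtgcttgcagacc
CXCL2: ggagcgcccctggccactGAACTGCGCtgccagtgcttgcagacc
CXCL3: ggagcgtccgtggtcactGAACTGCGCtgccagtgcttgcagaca
CXCL5: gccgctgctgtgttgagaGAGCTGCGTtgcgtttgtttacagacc
CXCL6: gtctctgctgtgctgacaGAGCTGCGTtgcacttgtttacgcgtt
CXCL8: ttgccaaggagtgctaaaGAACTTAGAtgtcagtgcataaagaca
The ELR codons were the same in *CXCL1*, *CXCL2* and *CXCL3*, the same in *CXCL5* and *CXCL6*, and different from both in *CXCL8*. Over the whole coding sequence, *CXCL1* and *CXCL2* were 93.5% identical, *CXCL2* and *CXCL3* 94.4%, *CXCL1* and *CXCL3* 90.7% and *CXCL5* and *CXCL6* 87.5%. *CXCL8* shared 47.1% to 52.9% of its bases with the other ligands. None of the 100-base windows of a ligand's longest coding transcript occurred in another ligand, while 50-base windows were shared for 5.73% of *CXCL1*, 9.24% of *CXCL2* and 5.26% of *CXCL3*. The read length is not given in the sources used here. In NC replicate 2 the estimated counts were 5.1 for *CXCL1* and 41.9 for *CXCL2*, which add up to 47. *CXCL8* was not whole in 6 of 6 libraries, and the gene that holds the remainder was not identified here.

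The ligand genes lie together on chromosome 4 of GRCh38, within 359 kb from the start of *CXCL8* to the end of *CXCL2*. In GENCODE v29, *CXCL8* (ENSG00000169429, chr4:73740506-73743716), *CXCL6* (ENSG00000124875, chr4:73836497-73849064) and *CXCL1* (ENSG00000163739, chr4:73869393-73871242) are on the plus strand. *CXCL5* (ENSG00000163735, chr4:73995642-73998779), *CXCL3* (ENSG00000163734, chr4:74036589-74038807) and *CXCL2* (ENSG00000081041, chr4:74097035-74099293) are on the minus strand. The receptors are neighbors on chromosome 2, *CXCR2* (ENSG00000180871, chr2:218125289-218137253, plus strand) and *CXCR1* (ENSG00000163464, chr2:218162845-218166995, minus strand). No other annotated gene overlaps a member, except for the pseudogene *PPBPP1* within *CXCL6*.

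The promoters are shown because all 6 ligands share a κB-type motif there, the kind of site that NF-κB binds. The bases from 100 to 21 before the RefSeq transcription start are given 5′ to 3′ along the gene, from RefSeq's GRCh38.p14 promoters, which held all 8 genes. Capitals mark GGAATTTCC.
CXCL1 (chr4:73869293-73869372, plus strand): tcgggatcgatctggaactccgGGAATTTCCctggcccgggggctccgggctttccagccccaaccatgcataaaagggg
CXCL2 (chr4:74099216-74099295, minus strand): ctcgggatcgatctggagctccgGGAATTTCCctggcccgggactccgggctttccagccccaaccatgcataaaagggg
CXCL3 (chr4:74038710-74038789, minus strand): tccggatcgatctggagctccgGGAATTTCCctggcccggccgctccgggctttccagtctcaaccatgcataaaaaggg
CXCL5 (chr4:73998698-73998777, minus strand): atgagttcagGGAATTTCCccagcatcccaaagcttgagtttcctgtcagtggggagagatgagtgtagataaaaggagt
CXCL6 (chr4:73836578-73836657, plus strand): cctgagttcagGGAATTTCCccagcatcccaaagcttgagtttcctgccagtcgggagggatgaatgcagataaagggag
CXCL8 (chr4:73740469-73740548, plus strand): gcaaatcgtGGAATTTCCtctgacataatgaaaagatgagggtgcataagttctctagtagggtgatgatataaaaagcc
The motif GGAATTTCC was searched on both strands of the 250 bases before the start. It was found once in each of the 6 ligands, on the strand of the gene, and in neither receptor. Among all 35116 RefSeq promoters of the same length, 145 held it (0.413%). The motif began 77 to 78 bases before the start in *CXCL1*, *CXCL2* and *CXCL3* and 89 to 91 bases before it in *CXCL5*, *CXCL6* and *CXCL8*. The AP-1-type motif TGACTCA was found in *CXCL8* alone, 137 bases before the start, and in 4.20% of all promoters. Without gaps, the windows of *CXCL1* and *CXCL3* shared 73 of 80 bases. The window of *CXCL2* is much like these, and that of *CXCL6* much like that of *CXCL5*. Both are shifted, so a count without gaps gives only 55 of 80 for *CXCL1* with *CXCL2* and 26 of 80 for *CXCL5* with *CXCL6*. The 6 matches are thus not independent, and the share of all promoters beside them is a description only. GENCODE v29 places the starts of several of these genes elsewhere than RefSeq, and which start HCCLM3 cells use was not measured.

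**Figure D1:**
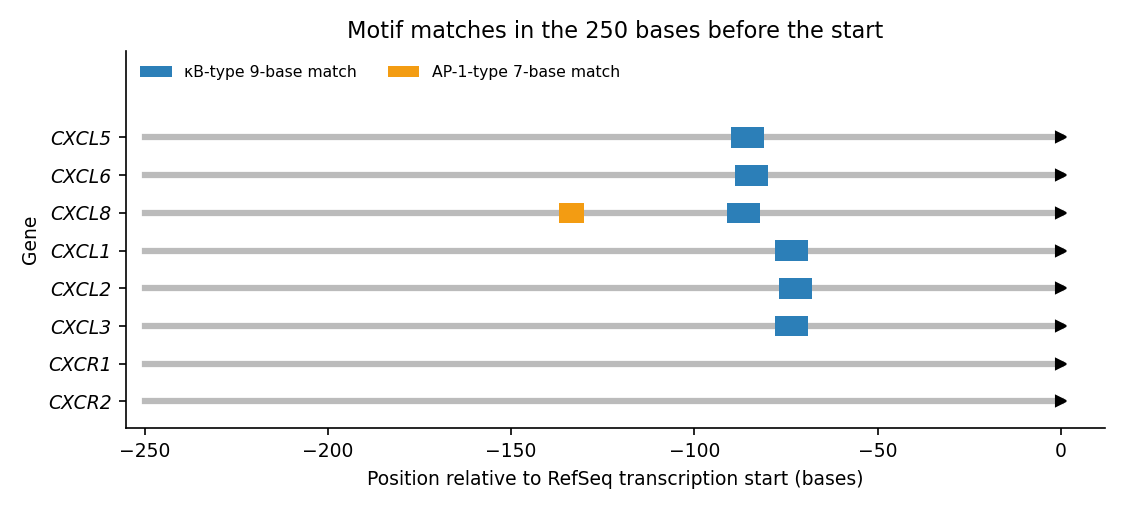
Positions of exact motif matches in the 250 bases before the RefSeq transcription start of each gene (x axis, bases; arrowhead, start), with κB-type matches (9 bases) in blue and AP-1-type matches (7 bases) in orange. The κB-type match begins 91 to 77 bases before the start in the 6 ligands and is missing from both receptors.

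The total of estimated counts was 15706672 to 17948383 per library, and every PON1-OE library had a lower total than every NC library. Values per library are given in the order of replicates 1 to 3. *PON1* itself had 0, 2 and 3 counts in the NC libraries against 155, 181 and 167 with overexpression. Of 10 hepatocyte and liver cancer markers, the keratins *KRT8* (2410 ± 199 CPM, SD, n = 3, in NC) and *KRT18* and the transcription factor *HNF4A* (78.6 ± 5.36 CPM, SD, n = 3) were expressed. *EPCAM*, also in the list, had at most 8 counts in any library. Of the secreted liver proteins in the list, *APOB* had 60 to 106 counts per library, while *AFP* had at most 18, *ALB* 13, *APOA1* 5, *TTR* 2 and *SERPINA1* 1 in any library. CPM are counts scaled to a common library size with TMM factors throughout. Of 10 neutrophil markers 8 had no count in any library, *MPO*, *ELANE*, *CSF3R* and *FCGR3B* among them, and the list summed to 0.0586 to 0.221 CPM in NC and 0 to 0.0609 CPM in PON1-OE. Of 10 other immune, endothelial and stromal markers 3 passed the filter on low counts, and *PTPRC* had no count. The 3 were *CD68*, *PECAM1* (216 to 249 counts per library) and *DCN* (58 to 107). The sum of the list, mostly from *CD68*, was 224 to 245 CPM in NC and 243 to 269 CPM in PON1-OE. The part of these markers in the results was not tested.

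Among the ligands, *CXCL5* dominated, *CXCL8* and *CXCL2* were low, *CXCL3* and *CXCL1* were close to the detection limit, and *CXCL6* and both receptors were not detected beyond single counts. All 5 ligands with more than 1 count had a lower mean in PON1-OE than in NC, while the median log2FC of all genes tested was −0.0025. The 5 include *CXCL5* and *CXCL3*, on which the family was selected. *CXCL1*, *CXCL2* and *CXCL3* share short stretches and may not be independent, so the shared direction is a description only. The groups did not overlap for *CXCL5* and *CXCL3* and overlapped for *CXCL8*, *CXCL2* and *CXCL1*. Because this is bulk RNA, fewer cells expressing a gene and less RNA per cell cannot be told apart.

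**Figure D2:**
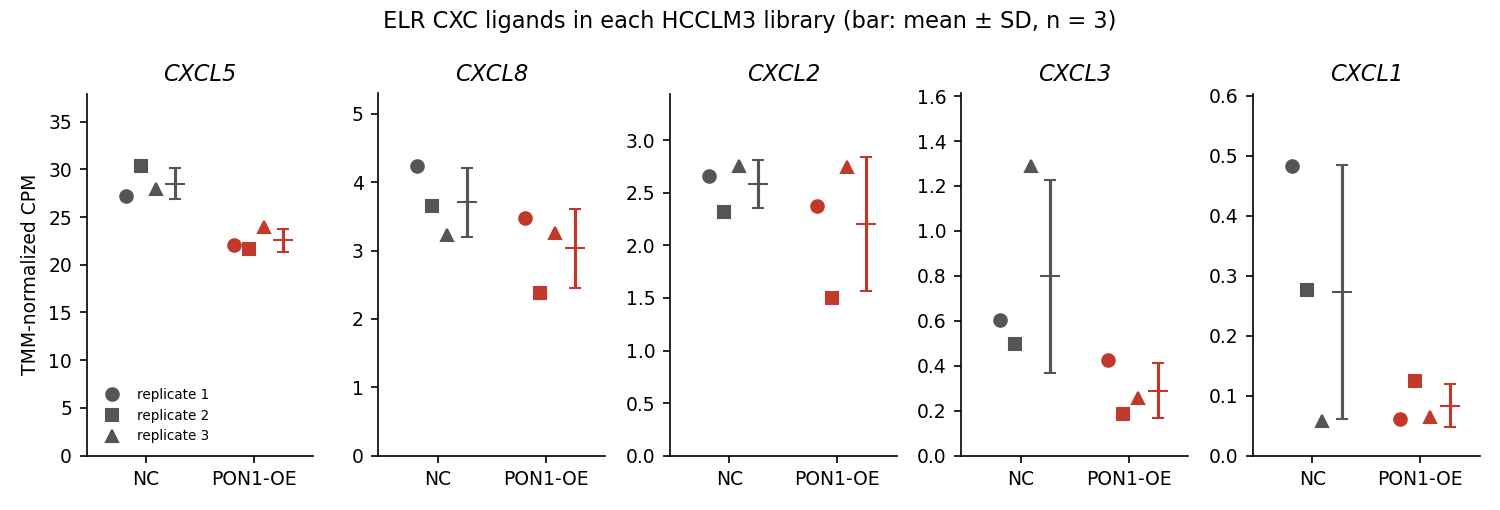
TMM-normalized CPM (y axis, linear, from 0) of 5 ligands in each NC (gray) and PON1-OE (red) library, with symbols for replicate numbers and bars for the mean and SD of 3 libraries. PON1-OE lies wholly below NC for *CXCL5* and *CXCL3*, while *CXCL8*, *CXCL2* and *CXCL1* overlap.

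*CXCL5* encodes ENA-78, a CXCR2 ligand made by epithelial cells. The NC libraries held 449, 549 and 477 counts of it, the PON1-OE libraries 363, 346 and 375. In CPM the NC libraries were at 27.2, 30.3 and 28.0, the PON1-OE libraries at 22.1, 21.6 and 23.9. The lowest NC library was 3.25 CPM above the highest PON1-OE library. Mean levels were 28.5 ± 1.65 CPM for NC against 22.6 ± 1.22 CPM for PON1-OE (SD, 3 libraries each), with a log2FC of −0.34 (standard error 0.078) or 20.9% lower in PON1-OE. At a mean of 426.5 counts per library, counting alone gives an error of 4.84%, close to the coefficients of variation of 5.77% in NC and 5.40% in PON1-OE. The gap between the means exceeded the SD of either group.

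In edgeR's quasi-likelihood fit with Benjamini-Hochberg adjustment, 81 of the 11958 genes tested (0.677%) had an adjusted p under 0.05, of which 21 (0.176%) were lower in PON1-OE. Of the 3 members that passed the filter, *CXCL5*, *CXCL2* and *CXCL8*, 1 was among these 21, *CXCL5*. The count is given only beside this background, since *CXCL5* was chosen on the same values, and it is no test of the member. *CXCL5* was not among the called genes when any single library was left out, under limma-voom or when the replicate number was a block. DESeq2 gave it no adjusted p and so no call. The log2FC of *CXCL5* stayed between −0.38 and −0.29 in all 14 alternatives tried.

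*CXCL8*, interleukin-8, is a ligand of both receptors and the best-known neutrophil attractant. It was estimated at 69.74, 66.43 and 55.12 counts in the NC libraries, against 56.56, 38.42 and 50.65 with overexpression. NC replicate 3 lay below PON1-OE replicate 1, and PON1-OE replicate 2 had the lowest value. This gave 3.70 ± 0.509 CPM for NC against 3.03 ± 0.580 CPM for PON1-OE (SD, 3 libraries each), with a log2FC of −0.29 (standard error 0.21). With single libraries left out the log2FC ran from −0.39 to −0.14. The counting error at its mean count was 13.3%, and a difference of this size was not resolved at this depth.

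*CXCL2*, a CXCR2 ligand of the GRO type, was estimated at 44, 41.9 and 47 counts in the NC libraries, against 39, 24 and 43 with overexpression. PON1-OE replicate 3 lay within the NC range, and PON1-OE replicate 2 was lowest here as well. This gave 2.58 ± 0.229 CPM for NC against 2.21 ± 0.639 CPM for PON1-OE (SD, 3 libraries each), with a log2FC of −0.22 (standard error 0.25). Without PON1-OE replicate 2 the log2FC was −0.010, and without PON1-OE replicate 3 it was −0.41.

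*CXCL3*, another GRO-type ligand of CXCR2, had 10, 9 and 22 counts in the NC libraries, against 7, 3 and 4 with overexpression. In CPM the NC libraries were at 0.604, 0.498 and 1.29, the PON1-OE libraries at 0.426, 0.188 and 0.255. The groups were separated by 2 counts, 9 against 7, and NC replicate 3 held more counts than the other NC libraries together. The filter on low counts removed the gene, and in the fit without the filter its log2FC was −1.43 (standard error 0.60). Without NC replicate 3 it was −0.90 (standard error 0.75). At its mean count the counting error was 33.0%, and the coefficient of variation was 53.8% in NC and 42.5% in PON1-OE.

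*CXCL1*, the archetype of the GRO ligands, was estimated at 8, 5.1 and 1 counts in the NC libraries, against 1, 2 and 1 with overexpression. NC replicate 3 was no higher than PON1-OE replicates 1 and 3. The rounded counts summed to 14 in NC and 4 in PON1-OE, a ratio of PON1-OE to NC of 0.307 with an exact 95% counting interval of 0.0736 to 0.977. The interval covers counting error only, and without NC replicate 1 the ratio was 0.487 (0.101 to 2.05). Most of the NC counts thus came from 1 library.

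*CXCL6*, which with *CXCL8* can act through CXCR1, had 1 count in PON1-OE replicate 2 and 0 in the 5 other libraries. *CXCR1* and *CXCR2*, the G-protein-coupled receptors for these ligands, had 0 counts in each of the 6 libraries. A count of 0 allows up to 3 counts, which corresponded to 0.166 to 0.191 CPM per library. The receptors were therefore not detectable at this depth in either group.

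Since *CXCL1*, *CXCL2* and *CXCL3* share short stretches, they were also summed into 1 feature. The NC libraries held 62, 56 and 70 rounded counts of it, the PON1-OE libraries 47, 29 and 48. In CPM, the lowest NC library was at 3.10 and the highest PON1-OE library at 3.06. The log2FC of the sum was −0.50 (standard error 0.23), between that of *CXCL2* and that of *CXCL3* alone.

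Of the genes that passed the filter, 926 of 11958 (7.74%) had all PON1-OE libraries below all NC libraries. Of the 3 members that passed it, *CXCL5* did. *CXCL3*, which did so too, was removed by the filter and is outside this background. The summed level of the 6 ligands was 35.1, 37.2 and 35.3 CPM in the NC libraries, against 28.4, 25.9 and 30.2 CPM with overexpression. Without *CXCL5* the NC sums were 7.97, 6.76 and 7.32 CPM, those of PON1-OE 6.33, 4.25 and 6.31 CPM. Both sums were lower in each PON1-OE library than in each NC library, with ratios of PON1-OE to NC of 0.786 and 0.766. The first sum is mostly *CXCL5* and the second still holds *CXCL3*, the genes on which the family was selected. The separation of the sums is thus a description, and no background of comparable sums was computed. *CXCL5* made up 79.4% ± 2.23 of the ligand counts for NC against 80.2% ± 2.97 for PON1-OE (SD, 3 libraries each), and the groups overlapped in this share.

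**Figure D3:**
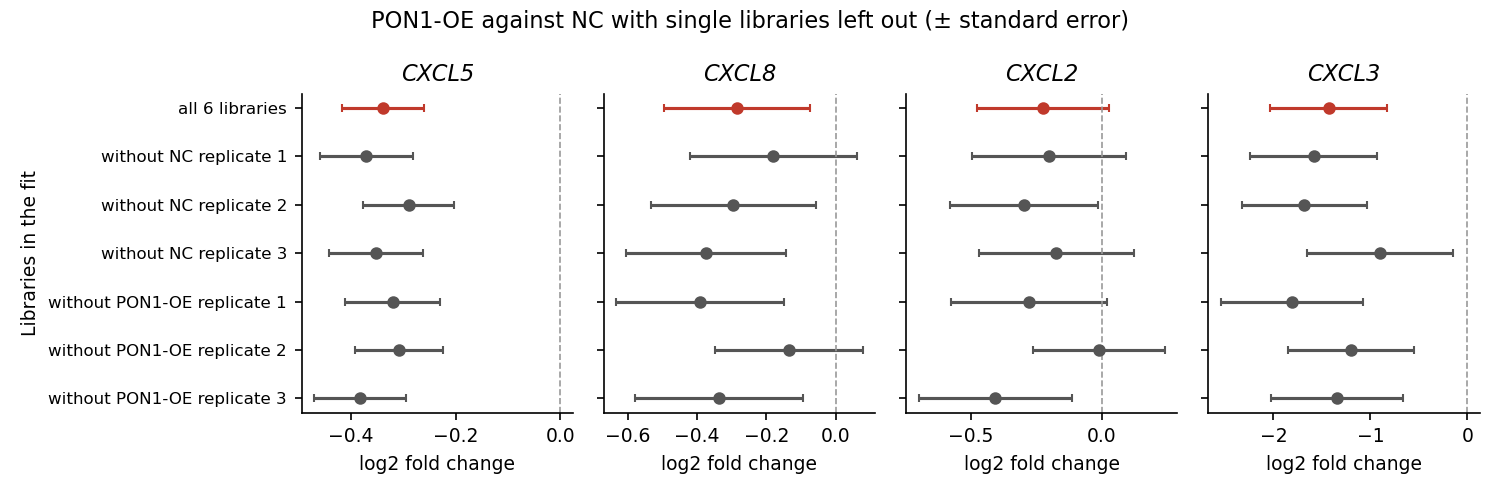
log2FC of PON1-OE against NC (x axis, a separate scale in each panel) with its standard error for 4 ligands, from all 6 libraries (red) and with each library left out in turn (gray). *CXCL5* stayed between −0.38 and −0.29, *CXCL2* reached −0.010 without PON1-OE replicate 2, and *CXCL3* moved to −0.90 without NC replicate 3.

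Levels were compared between genes per kilobase of the longest coding transcript in GENCODE v29. In NC, the order was *CXCL5* (11.2 ± 0.671 CPM per kb), *CXCL8* (2.17 ± 0.296), *CXCL2* (2.12 ± 0.185), *CXCL3* (0.742 ± 0.399) and *CXCL1* (0.249 ± 0.194; SD, n = 3 each). The NC libraries of *CXCL8* and *CXCL2* overlapped, and those of the other neighbors in this order did not, although *CXCL3* at 0.464 and *CXCL1* at 0.441 CPM per kb came close. In PON1-OE, *CXCL5* was at 8.89 ± 0.474 CPM per kb, *CXCL2* at 1.81 ± 0.524, *CXCL8* at 1.78 ± 0.340, *CXCL3* at 0.269 ± 0.114 and *CXCL1* at 0.0759 ± 0.0330 (SD, n = 3 each). *CXCL2* and *CXCL8* exchanged places within their spread, and the other genes kept theirs. By mean CPM, *CXCL5* ranked 6341 among the 11958 genes tested, *CXCL8* 10457 and *CXCL2* 10819.

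The genes between the ligands on chromosome 4 were nearly silent. *PPBP*, a further ELR chemokine, and *PF4V1* had no count in any library, and *PF4*, which lacks the motif, had at most 1 count. Of the flanking genes, *RASSF6* on the *CXCL8* side had 170 to 284 counts per library and a log2FC of −0.15 (standard error 0.12, adjusted p = 0.720, quasi-likelihood test in edgeR). *MTHFD2L* on the *CXCL2* side had a log2FC of 0.17 (standard error 0.43, adjusted p = 0.929). The EGF-family ligand *EREG*, further out, had a log2FC of −0.14 (standard error 0.050, adjusted p = 0.244). None of these neighbors passed the test.

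Across the 6 libraries, the levels of the members were compared on the log2 scale as a description. After the group means were taken out, the highest Pearson r was 0.71 for *CXCL2* with *CXCL8* (6 libraries), both being lowest in PON1-OE replicate 2. *CXCL5* and *CXCL3* were lowest in that library as well, so this is not particular to the pair. The r was 0.50 for *CXCL2* with *CXCL3* and 0.05 for *CXCL3* with *CXCL8*. For *CXCL5* the values were 0.34 with *CXCL2*, 0.17 with *CXCL8* and −0.26 with *CXCL3*. With the group means left in, the genes whose pattern was most like that of *CXCL5* were *ARAP3*, *TOR1AIP2* and *LEO1* (Pearson r = 0.996, 0.994 and 0.987). For *CXCL2* they were *CUL4B*, *ZFC3H1* and *CILK1* (r = 0.995, 0.992 and 0.981), and for *CXCL8* they were *RDX*, *ZBTB18* and *GABPB1* (r = 0.984, 0.983 and 0.977). An r over 0.95 was reached by 40, 44 and 27 genes, respectively. With 6 libraries that share depth and group, values this high can be met by many of 11958 genes.

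To place the ligands in their pathway, 7 lists with 136 other genes were compared between the groups. The filter left 104 of them, and 2 passed the test at an adjusted p under 0.05 (1.92%), *NFKBIZ* lower and *TNIP1* higher in PON1-OE, against 0.677% of all genes tested. At an unadjusted p under 0.05 there were 18 (17.3%), against 11.1% of all genes. The median log2FC was 0.020 over the 104 genes and −0.0025 over all genes tested. The lists were written with earlier results of these data known.

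The list of transcription factors for the ligand promoters, which also holds inhibitors of NF-κB, held both of the genes that passed. *NFKBIZ* encodes IκBζ, an inducible nuclear partner of NF-κB. The NC libraries held 228, 256 and 277 counts of it, the PON1-OE libraries 163, 163 and 161, without overlap. It fell from 14.7 ± 1.32 to 10.1 ± 0.185 CPM (SD, 3 libraries each), with a log2FC of −0.54 (standard error 0.11, adjusted p = 0.0187 in edgeR). Its adjusted p rose to 0.184 on leaving out NC replicate 3 and to 0.0634 and 0.0940 on leaving out PON1-OE replicates 1 and 3, and it ranged from 0.00174 to 0.184 over 12 alternatives.

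*TNIP1*, whose product works with the ubiquitin-editing enzyme A20 to restrain NF-κB, had 2179, 2356 and 2163 counts in the NC libraries, against 2453, 2367 and 2292 with overexpression. It rose from 129.7 ± 2.60 to 148 ± 1.52 CPM (SD, 3 libraries each), with a log2FC of 0.19 (standard error 0.041, adjusted p = 0.0368 in edgeR). This call was lost in 6 of 13 alternatives, with adjusted p values of 0.114, 0.0606 and 0.249 on leaving out NC replicates 1, 2 and 3, of 0.112 and 0.129 on leaving out PON1-OE replicates 1 and 3, and of 0.0844 with the replicate block, and it ranged from 0.0053 to 0.249 over the 13. All 25 genes of this list were tested, 14 were higher and 11 lower, and the median log2FC was 0.0070. The highest value was that of the AP-1 subunit *FOS* (log2FC 0.40, standard error 0.21, adjusted p = 0.504).

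Of 17 other CXC chemokines and receptors, 10 had no count in any library, *CXCL10*, *CXCL12*, *CXCR4* and the chemokine scavenger *ACKR1* among them. Only *CXCL16* and *ACKR3* were tested, and 0 passed in edgeR, with 1 at an unadjusted p under 0.05. *CXCL16*, a membrane-bound chemokine without the ELR motif, was at 153 ± 0.716 CPM for NC against 141 ± 7.14 CPM for PON1-OE (SD, 3 libraries each; log2FC −0.12, standard error 0.044, adjusted p = 0.297). *ACKR3*, an atypical receptor, had a log2FC of 0.52 (standard error 0.36, adjusted p = 0.648).

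Of 13 other neutrophil attractants and growth factors 6 were tested, and 0 passed in edgeR, with 3 at an unadjusted p under 0.05. *CSF2*, the growth factor GM-CSF, had 13, 27 and 21 counts in the NC libraries, against 33, 25 and 35 with overexpression, which overlapped in counts but not after scaling. Its log2FC was 0.71 (standard error 0.31, adjusted p = 0.395), the highest of the list, and the lowest was that of the complement gene *C5* (log2FC −0.15, standard error 0.11, adjusted p = 0.670). *CSF3*, the growth factor of neutrophils, had no count.

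Upstream, 26 of 29 inducing cytokines, receptors and adaptors were tested, 17 higher and 9 lower in PON1-OE, with a median log2FC of 0.022. In edgeR 0 passed, with 2 at an unadjusted p under 0.05. The lowest value was that of the cytokine *IL1A* (log2FC −0.26, standard error 0.22, adjusted p = 0.719) and the highest that of its antagonist *IL1RN* (log2FC 0.24, standard error 0.12, adjusted p = 0.457).

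Among 16 genes listed for mRNA decay and stability, all tested, 0 passed in edgeR, with 1 at an unadjusted p under 0.05, and the median log2FC was −0.031. The extremes were the endonuclease gene *ZC3H12A* (log2FC −0.13, adjusted p = 0.747) and *ARID5A*, whose product stabilizes certain mRNAs (log2FC 0.14, adjusted p = 0.608). Of 20 genes of CXCR2 signaling and desensitization, 16 were tested and 0 passed in edgeR, with 4 at an unadjusted p under 0.05. Their log2FC ran from −0.14 for *GNAI1* (adjusted p = 0.391) to 0.30 for the small GTPase gene *RAC2* (adjusted p = 0.164). Of 16 genes of chemokine processing and presentation, 13 were tested and 0 passed in edgeR, with 1 at an unadjusted p under 0.05. They ran from −0.21 for the sheddase gene *ADAM10* (adjusted p = 0.211) to 0.17 for the collagenase gene *MMP1* (adjusted p = 0.528).

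**Figure D4:**
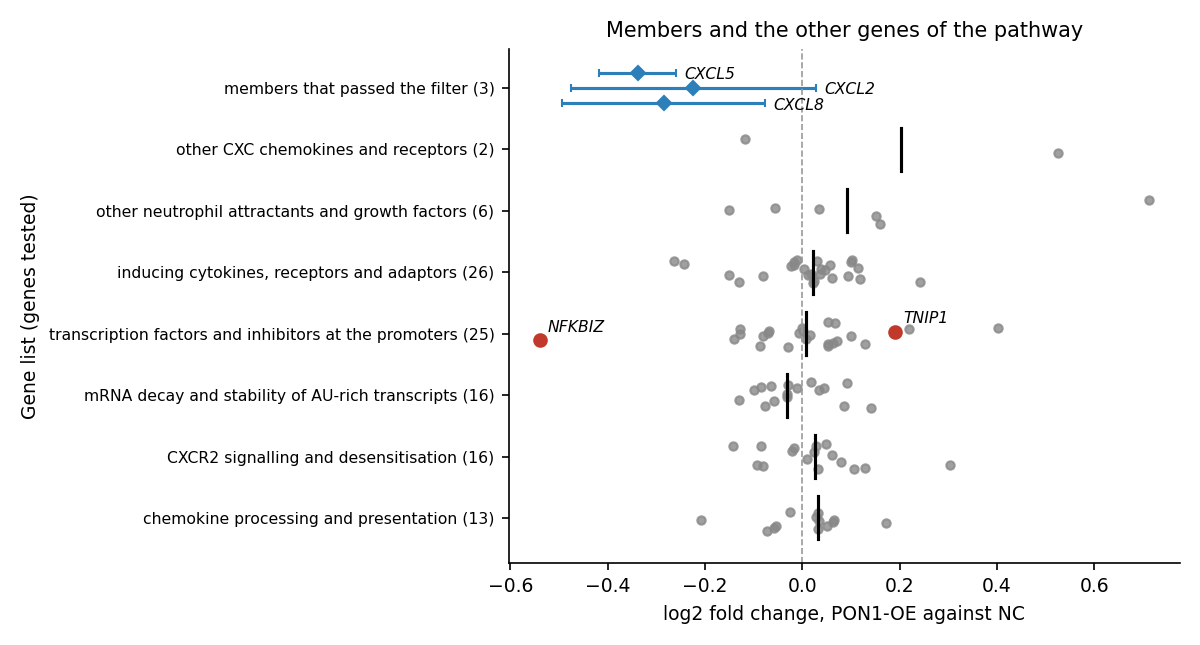
log2FC of PON1-OE against NC (x axis) for the 3 members that passed the filter (blue, with standard error, chosen on these values and shown as a description) and for 104 genes of 7 pathway lists (gray; red, adjusted p under 0.05 in edgeR; black lines, list medians; vertical scatter within a row has no meaning). Among the 104 list genes, *NFKBIZ* at −0.54 and *TNIP1* at 0.19 passed the test.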

How the data were processed

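The authors deposited 1 table of estimated counts per gene, not normalized, for 20381 Ensembl genes in 3 NC and 3 PON1-OE libraries, and 10.5% of the values were not whole. The submitters' processing notes name Bowtie2 2.2.8, HISAT2, StringTie 1.3.1 and DESeq2 without their roles, and the build and annotation are not given in the sources used here. Of the identifiers, 20126 are in GENCODE v29 (GRCh38), which supplied coordinates, transcripts and lengths, and promoters came from RefSeq. Columns were matched to libraries by the library names in the labels.

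The estimated counts were rounded, and R 4.3.3 with edgeR 4.0.16 was used (filterByExpr, TMM, quasi-likelihood test, Benjamini-Hochberg adjustment over 11958 genes; called at an adjusted p under 0.05), with limma 3.58.1 (voom) and DESeq2 1.42.0 as alternatives. The standard error is the log2FC divided by the root of F. Members removed by the filter were fitted without it (15542 genes). The fit was run on simulated counts in which 200 genes were changed by a log2FC of 0.8. This is larger than the change of *CXCL5*, *NFKBIZ* or *TNIP1*, so the simulation does not show how well theirs are recovered. Totals of 15706672 to 17948383 counts set the precision, and intervals cover counting error only. Libraries of a group differed beyond sampling noise (chi-square per degree of freedom 2.11 to 4.11).

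The members, lists and tests were chosen with earlier results of these data known. The genes named are the members, called genes and the highest and lowest log2FC of each list, *PON1*, markers, neighbors on chromosome 4 and the 3 genes most like each tested member. The alternatives were DESeq2, limma-voom, RLE scaling, leaving the filter out, a minimum of 10 counts per library, the replicate number as a block, single libraries left out, a prior count of 2, the sum of *CXCL1*, *CXCL2* and *CXCL3* and, chosen after seeing the data, counts not rounded.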

Additional observations from a re-analysis of the deposited data

How the results depend on the processing

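The number of genes called at an adjusted p under 0.05 moved from 81 to 177 without the filter on low counts and to 123 with DESeq2. With single libraries left out it ran from 11 without NC replicate 3 to 103 without PON1-OE replicate 2. With the replicate number as a block it was 40, of which 39 were among the 81. Same-numbered libraries did not deviate together (correlation of their deviations from the group means 0.07, −0.21 and −0.10), and not every library correlated best with its own number, so the numbers were not treated as pairs. Calls among the other pathway genes went from 2 to 4 without the filter, to 1 with the replicate block and to between 0 and 4 with single libraries left out. With DESeq2 the count was 2, of which 1 was shared, and DESeq2 gave *NFKBIZ* and *CXCL5* no adjusted p. Genes whose groups did not overlap, 1921 in all, rose to between 2887 and 3560 with single libraries left out, where 2 libraries face 3. Summing *CXCL1*, *CXCL2* and *CXCL3* moved the log2FC from −1.43 for *CXCL3* to −0.50, since *CXCL2* held most of the counts. The log2FC of *CXCL5*, *CXCL2*, *CXCL3* and *CXCL8* was negative in every alternative that gave a value, though only −0.010 for *CXCL2* without PON1-OE replicate 2. *CXCL5* and *CXCL3* were selected as lower and their groups did not overlap. Leaving out libraries could therefore not turn their sign, which adds no evidence. *CXCL3* could not be fitted with at least 10 counts in every library. The other log2FC of members moved by less than 1 SD between libraries. Low counts limit *CXCL1*, *CXCL3*, *CXCL6* and the receptors.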
